A study of Mus musculus with 6 samples.

Results

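Osteoclasts, the cells that resorb bone, form from blood-borne precursors under the control of a small set of signals, and 8 genes of this control were followed here through embryonic mouse limb tissue. They are Tnfsf11 (RANKL), Tnfrsf11a (RANK), Tnfrsf11b (osteoprotegerin), Csf1, Oscar, Nfatc1, Ctsk and Acp5. A probe was taken when the gene name in the scanner files equalled 1 of these symbols, which gave 11 probes for the 8 genes, out of 41085 probes and 19498 named genes. Tnfsf11, Tnfrsf11a and Nfatc1 had 2 probes each, and the other 5 genes had 1.

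RANKL, a membrane-bound or shed ligand of the tumour necrosis factor family, is made by osteoblast-lineage cells, hypertrophic chondrocytes and lymphocytes and binds RANK on the precursor. Osteoprotegerin is a secreted decoy receptor that takes up RANKL, so that its ratio to RANKL sets how many osteoclasts form, while colony stimulating factor 1 (Csf1) keeps the precursors alive. RANK signalling, helped by immunoglobulin-like receptors such as OSCAR, switches on the transcription factor NFATc1, which in turn drives the genes of the bone-degrading machinery, among them the collagen-cleaving protease cathepsin K (Ctsk) and the tartrate-resistant acid phosphatase (Acp5). Ctsk is also made by mesenchymal cells of the skeleton.

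The material was the autopod, the hand or foot plate, of C57BL/6 embryos at stage E14.5, from 2 Tgfbr2Prx1KO embryos and 2 littermate controls. By convention the mutant's name stands for loss of Tgfbr2, which encodes a TGF-beta receptor, through a recombinase under the Prx1 promoter, which is active in limb mesenchyme and not in the blood lineage that osteoclasts come from. Interzone (the cell band where a joint will form), growth plate chondrocytes and interdigital tissue were laser-captured, and the RNA was amplified by PCR and hybridised with 1 dye. The 6 groups were mutant and control interzone, mutant and control growth plate, and mutant and control interdigital tissue, with 1 array each. The sources used here give neither the animals nor the number of cells pooled for an array.

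Levels below are log2 processed signals minus the 75th percentile of the same array, so a level of 0 is that percentile, and probes are compared across arrays and not with each other. With 1 array for each tissue and genotype there is no replicate spread within a tissue, the differences are given tissue by tissue and no test was run. A difference was counted when it reached 2-fold with both spots marked well above background. The error given after a difference is the scanner software's own error of the 2 measurements, which covers the spots and not animals, dissection or amplification. In captured tissue, fewer cells of a type and less RNA per cell cannot be told apart.

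Between 72.3% (control growth plate) and 88.3% (control interdigital tissue) of spots were well above background, and the control growth plate array also had the lowest median signal, 103 units, against 340 to 502 on the other 5. The mutant growth plate and mutant interdigital arrays lay on 1 slide and the other 4 arrays on another, so that genotype and slide cannot be told apart in those tissues, while the interzone pair shared a slide. Tgfbr2, the targeted gene, had a level of 2.24 in mutant and 2.42 in control interzone, 1.20 in mutant and -2.40 in control growth plate, and 1.91 in mutant and 2.50 in control interdigital tissue at its brightest probe. It was thus not lowered to the 2-fold threshold at that probe in any tissue, and in growth plate it was 12.2-fold higher in the mutant, while its dimmest probe was 12.1-fold lower in mutant interdigital tissue. Whether a probe lies inside the deleted part is not given, so the genotype labels are not checked by it. The cartilage list had its highest median in control growth plate (5.18) and the interzone list in control interzone (2.81), whereas the interdigital list had a higher median in control interzone (0.61) than in control interdigital tissue (0.12).

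At the brightest probes, the largest differences between genotypes among the 8 genes were those of Tnfsf11 in interdigital tissue, 84.8-fold lower in the mutant, and of Ctsk in growth plate and interzone, 29.9-fold and 19.3-fold lower in the mutant. The interdigital Tnfsf11 difference, -6.41 on the log2 scale, shrank to -3.63 with normexp background correction. Tnfrsf11b was lower by at least 2-fold in the mutant in all 3 tissues, although in interzone and interdigital tissue it came under 2-fold in 3 of the 6 alternatives that use this threshold. Acp5 in growth plate was the only 1 of the 8 genes that was counted as higher in a mutant tissue, at 6.07-fold. Ctsk was also counted as lower in each of the 3 tissues, a call that was lost in interdigital tissue with the deposited ratios.

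The promoters of these 2 genes are shown because Tnfsf11 and Ctsk had the differences that stand out below. The sequences are RefSeq's for the assembly GRCm38.p6, run 5′ to 3′ along the gene from 250 bases before its start, and capitals mark the matches to the motifs searched on both strands.
Tnfsf11, chr14:78307994-78308293, minus strand: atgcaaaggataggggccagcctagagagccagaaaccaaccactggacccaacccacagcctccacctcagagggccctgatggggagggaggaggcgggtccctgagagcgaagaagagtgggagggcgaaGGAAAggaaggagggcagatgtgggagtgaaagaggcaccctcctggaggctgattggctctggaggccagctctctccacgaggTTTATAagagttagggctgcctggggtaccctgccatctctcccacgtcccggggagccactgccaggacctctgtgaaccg
Ctsk, chr3:95498960-95499259, plus strand: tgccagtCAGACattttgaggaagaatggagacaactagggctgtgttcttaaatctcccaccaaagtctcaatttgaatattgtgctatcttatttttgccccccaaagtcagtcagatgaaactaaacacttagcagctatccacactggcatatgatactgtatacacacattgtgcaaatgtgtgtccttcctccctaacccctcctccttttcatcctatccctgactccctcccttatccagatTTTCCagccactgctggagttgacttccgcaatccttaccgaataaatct
The motifs were the TATA box core TATAAA, found in 13.6% of 32851 mouse promoters of this length, the AP-1 site TGANTCA (7.81%), the RUNX site TGTGGT (16.8%), the NFAT core GGAAA (61.3%) and the Smad core CAGAC (49.6%). The Tnfsf11 window held TATAAA on the opposite strand 32 bases before the start and GGAAA 117 bases before it. The Ctsk window held CAGAC 243 bases before the start and GGAAA on the opposite strand at the start itself. No matches overlapped, and neither window held the AP-1 or RUNX letters. A match describes these letters and shows no binding. The GC content was 61.7% for the Tnfsf11 window and 43.7% for the Ctsk window.

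Tnfsf11 encodes the ligand that starts osteoclast formation. At its brightest probe, which the files place on chromosome 14 from 72958504 to 72958563 in a build they do not name, its level was -6.84 in mutant and -0.44 in control interdigital tissue. In growth plate it was -5.74 in the mutant and -5.24 in the control. In interzone it was -6.62 in the mutant, not well above background, and -4.55 in the control. Control interdigital tissue thus stood far above the other 5 arrays, which lay between -6.84 and -4.55. The interdigital difference was -6.41 ± 0.26, or 84.8-fold lower in the mutant. Of the 17791 genes well above background on both arrays of that tissue, 0.0169% had a lower difference. That share leaves out 437 genes well above background in the control only, for which just a bound on the lower side is known. In interzone Tnfsf11 was at least 3.85-fold lower in the mutant, and in growth plate its difference of -0.50 ± 0.26 stayed under 2-fold.

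The other Tnfsf11 probe lies on the same chromosome from 72958725 to 72958784. It read -8.67 in mutant interdigital tissue, not well above background, and -0.60 in the control, which makes the gene at least 145-fold lower in the mutant there. It read -6.20 in mutant and -4.15 in control interzone, a difference of -2.05 ± 0.32 or 4.15-fold lower in the mutant. In growth plate it read -8.64 in the mutant, not well above background, and -6.44 in the control, at least 2.02-fold lower in the mutant. Both probes therefore had the mutant below its control in each tissue, and the correlation between them over the 6 arrays was 0.91.

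**Figure D1:**
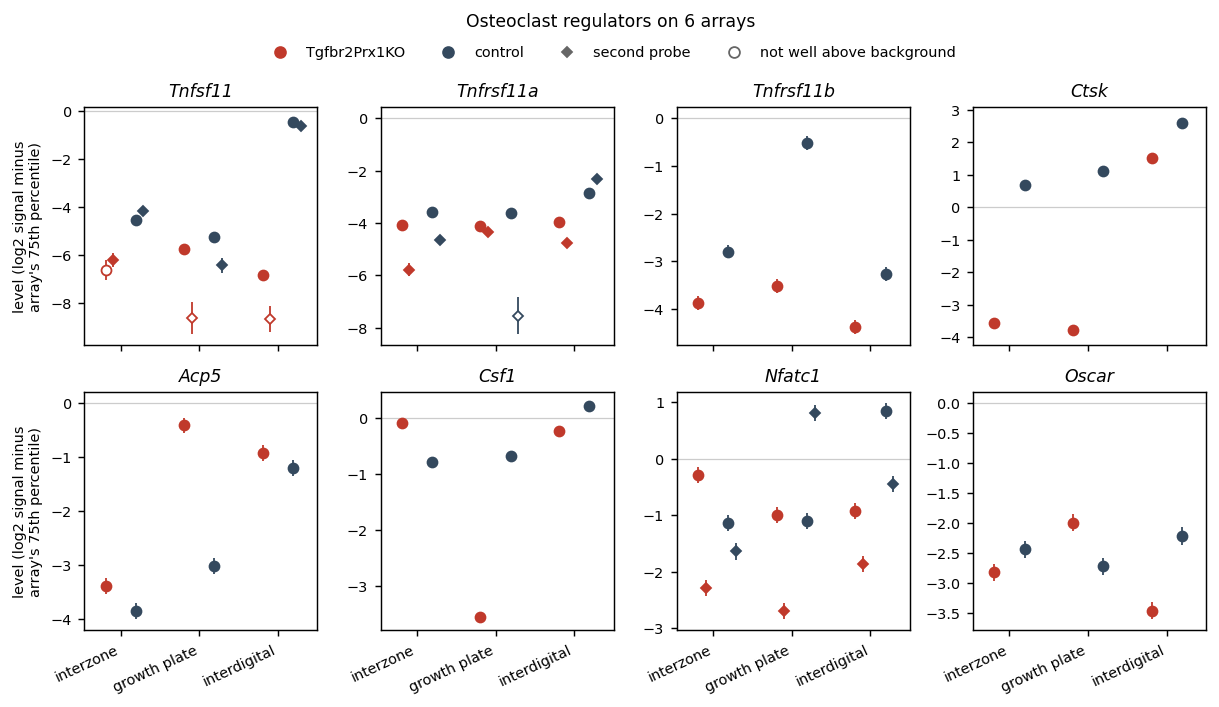
Level of each of the 8 genes on the 6 arrays (log2 signal relative to the array's 75th percentile, vertical axis, with its own range in each panel) by tissue, mutant in red left of control in dark blue. Circles are the brightest probe, diamonds the second probe, open symbols spots not well above background, and bars the scanner software's error. Tnfsf11 was at -6.84 in mutant and -0.44 in control interdigital tissue at its brightest probe, and Ctsk was at -3.57 and -3.77 in mutant interzone and mutant growth plate and above 0 on the other 4 arrays.

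Tnfrsf11a encodes RANK, the receptor of that ligand on the precursor. Its brightest probe had levels of -4.07 in mutant and -3.58 in control interzone, -4.13 in mutant and -3.63 in control growth plate, and -3.97 in mutant and -2.86 in control interdigital tissue. With this scaling the 3 mutant arrays lay between -4.13 and -3.97, below all 3 controls. The interdigital difference of -1.11 ± 0.21 was 2.16-fold lower in the mutant, a call that was lost with the deposited ratios, quantile normalization and normexp background correction. Those of interzone (-0.49 ± 0.22) and growth plate (-0.49 ± 0.21) stayed under 2-fold. The growth plate difference lay near the median of all genes in that pair (-0.45), and the interzone difference was as small as -0.02 in an alternative.

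The second Tnfrsf11a probe did not follow the first in growth plate. It read -5.78 in mutant and -4.64 in control interzone, and -4.78 in mutant and -2.33 in control interdigital tissue, which was 2.20-fold and 5.47-fold lower in the mutant. In growth plate it read -4.36 in the mutant and -7.54 in the control, not well above background there, so that the probe was at least 4.54-fold higher in the mutant while the brightest probe was 1.41-fold lower. The correlation between the 2 probes over the 6 arrays was 0.51.

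Tnfrsf11b encodes osteoprotegerin, the decoy that keeps RANKL from RANK. Its level was -3.87 in mutant and -2.80 in control interzone, -3.52 in mutant and -0.52 in control growth plate, and -4.38 in mutant and -3.26 in control interdigital tissue. Control growth plate was the high array, and with this scaling each mutant array lay below all 3 controls. The differences were -3.00 ± 0.21 in growth plate, 8.01-fold lower in the mutant, -1.07 ± 0.21 in interzone (2.11-fold lower) and -1.12 ± 0.21 in interdigital tissue (2.18-fold lower). Its interzone and interdigital differences came under 2-fold with the deposited ratios, with quantile normalization and with normexp background correction. In interdigital tissue both the ligand and its decoy were thus lower in the mutant, the ligand by -6.41 (-3.63 with normexp) and the decoy by -1.12 (under 2-fold with normexp) on the log2 scale.

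Csf1 encodes the growth factor that macrophages and osteoclast precursors need to survive. Its probe was spotted 10 times, so its spread within an array is known, an SD of 0.05 to 0.11 on the log2 scale over 8 to 10 clean spots. Its level was -0.09 in mutant and -0.78 in control interzone, -3.55 in mutant and -0.69 in control growth plate, and -0.24 in mutant and 0.22 in control interdigital tissue. Mutant growth plate alone stood low, 7.28-fold below its control (-2.86 ± 0.07). In interzone the mutant was higher by 0.69 ± 0.07 and in interdigital tissue lower, at -0.46 ± 0.06. Both differences were larger than the spot spread and under 2-fold.

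Oscar encodes a costimulatory receptor of the osteoclast precursor. Its level was -2.83 in mutant and -2.44 in control interzone, -2.00 in mutant and -2.72 in control growth plate, and -3.46 in mutant and -2.22 in control interdigital tissue. The interdigital difference of -1.24 ± 0.20 was 2.37-fold lower in the mutant, a call that was lost with normexp background correction. The other 2 differences, -0.38 ± 0.21 in interzone and 0.73 ± 0.21 in growth plate, stayed under 2-fold.

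Nfatc1 encodes the transcription factor that RANK signalling induces. Its brightest probe had levels of -0.28 in mutant and -1.14 in control interzone, -0.99 in mutant and -1.11 in control growth plate, and -0.93 in mutant and 0.84 in control interdigital tissue. Control interdigital tissue was the high array, and the mutant there was 3.41-fold lower (-1.77 ± 0.20). The second probe, matched to another transcript of the gene, read -2.29 in mutant and -1.64 in control interzone, -2.69 in mutant and 0.81 in control growth plate, and -1.86 in mutant and -0.44 in control interdigital tissue. It was 11.3-fold lower in mutant growth plate (-3.50 ± 0.20), where the brightest probe differed by 0.11 ± 0.20. The probes shared their direction in interdigital tissue, where the second was 2.67-fold lower in the mutant, and not in interzone or growth plate, and their correlation over the 6 arrays was 0.15.

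Ctsk encodes cathepsin K, the main protease with which osteoclasts degrade bone collagen. Its level was -3.57 in mutant and 0.69 in control interzone, -3.77 in mutant and 1.13 in control growth plate, and 1.53 in mutant and 2.61 in control interdigital tissue. The mutant arrays of interzone and growth plate stood low and close together, while the other 4 arrays lay above 0. The difference was -4.27 ± 0.21 in interzone, 19.3-fold lower in the mutant, and 1.46% of the 16676 genes measured there had a lower one. In growth plate it was -4.90 ± 0.21, 29.9-fold lower, with 1.37% of 16162 genes lower still. These shares leave out the genes with just a bound on the lower side, 1072 in interzone and 422 in growth plate. Interdigital Ctsk was 2.11-fold lower in the mutant (-1.07 ± 0.20), a call that was lost with the deposited ratios.

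Acp5 encodes the acid phosphatase whose staining marks osteoclasts in sections. It was not lower in any mutant tissue. Its level was -3.39 in mutant and -3.85 in control interzone, -0.41 in mutant and -3.02 in control growth plate, and -0.92 in mutant and -1.20 in control interdigital tissue. Mutant growth plate and both interdigital arrays were high and the other 3 arrays low. Acp5 was 6.07-fold higher in mutant growth plate (2.60 ± 0.21), and the differences in interzone (0.46 ± 0.21) and interdigital tissue (0.28 ± 0.20) stayed under 2-fold. Ctsk and Acp5, both effectors of the mature osteoclast, thus lay on opposite sides of 0 in growth plate.

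Counted over the brightest probes, 0 of 7 measured members were higher and 2 lower in mutant interzone, with Tnfsf11 as a further bound on the lower side. Among all measured genes of that tissue 17.8% passed 2-fold upwards in the mutant and 22.8% downwards. In growth plate 1 of 8 was higher and 3 were lower in the mutant, where the shares of all genes were 22.1% higher and 32.6% lower. In interdigital tissue 0 of 8 were higher and 6 were lower in the mutant, where the shares of all genes were 10.1% higher and 16.0% lower. The members' share of lower genes thus lay near that of all genes in interzone and growth plate, and above it in interdigital tissue. There the deposited ratios and normexp each left 3 members lower, and quantile normalization lost the calls of Tnfrsf11a and Tnfrsf11b. Of all measured probes in that tissue, 9.58% were lower with normexp, against 19.1% with the main scaling. The members' median differences were -0.38, -0.50 and -1.12 in interzone, growth plate and interdigital tissue, beside -0.11, -0.45 and -0.18 over all genes. The all-gene median of the growth plate pair moved to -0.07 when scaled on probes detected on all arrays and to -1.56 with the deposited ratios, so growth plate differences are read against that shift. None of the 12 counted member differences changed direction under the 3 other scalings or normexp background correction. The uncounted growth plate differences of Nfatc1 and Oscar did so under some of these. That of Tnfrsf11a kept its direction under all of them and turned only when its probes were averaged (1.34).

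**Figure D2:**
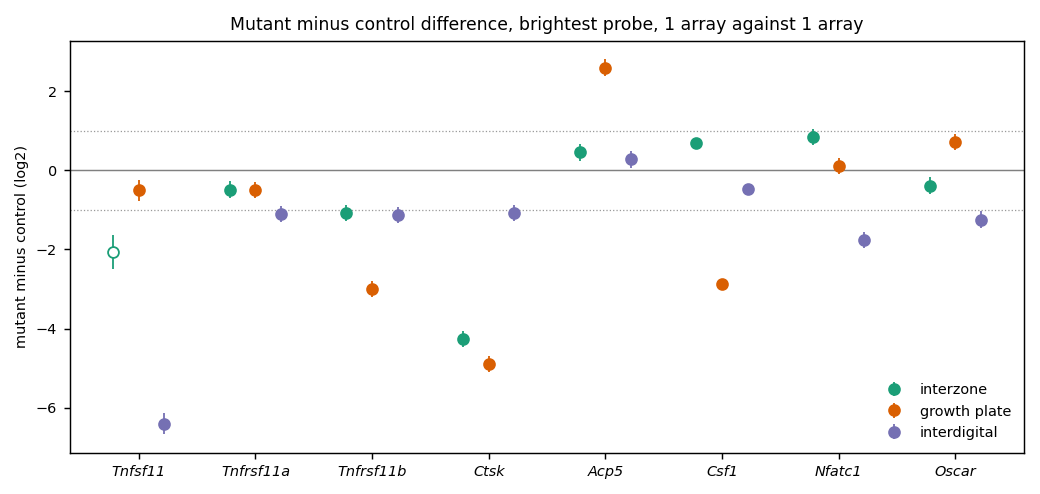
Mutant minus control difference (log2, vertical axis) of each of the 8 genes at its brightest probe in interzone, growth plate and interdigital tissue, with the scanner software's error as bars and dotted lines at 2-fold. The open circle, Tnfsf11 in interzone, has 1 spot not well above background. Tnfsf11 lies at -6.41 in interdigital tissue, Ctsk at -4.27 and -4.90 in interzone and growth plate, and Acp5 at 2.60 in growth plate.

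Between tissues of control embryos, Tnfsf11, Ctsk, Acp5 and Nfatc1 were lower in interzone and in growth plate than in interdigital tissue. Tnfsf11 was 17.3-fold lower in control interzone and 27.8-fold lower in control growth plate than in control interdigital tissue, and its second probe was 11.7-fold and 57.0-fold lower. Ctsk was 3.76-fold and 2.78-fold lower, Acp5 6.28-fold and 3.52-fold lower, and Nfatc1 3.95-fold and 3.86-fold lower in these 2 pairs, although the second Nfatc1 probe was 2.38-fold higher in growth plate. Csf1 was 2.01-fold lower in control interzone than in control interdigital tissue. Tnfrsf11b was 6.69-fold higher in control growth plate than in control interdigital tissue and 4.85-fold lower in control interzone than in control growth plate. In all, 5 of 8 members passed 2-fold between interzone and interdigital controls, where 29.5% of genes did, 5 between growth plate and interdigital controls (49.7% of genes) and 1 between interzone and growth plate controls (48.8%). The pairs of tissues share arrays, so the interdigital control array takes part in both of the first comparisons. The folds that involve control growth plate depended on the scaling. With the deposited ratios 2 members passed 2-fold between growth plate and interdigital controls, and 6 between interzone and growth plate controls.

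Between tissues of mutant embryos, Ctsk was 34.4-fold lower in mutant interzone and 39.5-fold lower in mutant growth plate than in mutant interdigital tissue. Tnfsf11 was 2.15-fold higher in mutant growth plate than in mutant interdigital tissue at its brightest probe, both levels being near the lower end of the arrays, and its second probe was not well above background on either. Csf1 was 11.0-fold higher in mutant interzone than in mutant growth plate and 9.96-fold lower in mutant growth plate than in mutant interdigital tissue. Acp5 was 7.88-fold lower in mutant interzone than in mutant growth plate and 5.54-fold lower than in mutant interdigital tissue, and Oscar was 2.76-fold higher in mutant growth plate than in mutant interdigital tissue. The members past 2-fold were 2 of 7 between mutant interzone and growth plate (39.5% of genes), 2 of 7 between mutant interzone and interdigital tissue (36.2%) and 4 of 8 between mutant growth plate and interdigital tissue (29.4%).

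The wider pathway was followed through 6 lists with 90 genes other than the members, 89 of them on the array. Of the 80 measured in interzone, 21 passed 2-fold upwards in the mutant and 18 downwards, with a median of -0.08. In growth plate 23 of 74 were higher and 23 lower, with a median of -0.18, and in interdigital tissue 12 of 85 passed 2-fold each way, with a median of 0.02. Of all genes, the shares were 17.8% higher and 22.8% lower in interzone, 22.1% and 32.6% in growth plate, and 10.1% and 16.0% in interdigital tissue. With this scaling about as many of these genes were higher as lower in each tissue, with bounds left out of the counts. In growth plate 25 were higher and 14 lower when scaled on probes detected on all arrays, and 42 were lower with the deposited ratios. In interdigital tissue 20 were higher with quantile normalization and 4 lower with normexp. The genes named below are those furthest out in their list. Named genes rest on their brightest probe, and 8 differences of genes named by this rule turned direction when all probes of the gene were averaged.

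RANK signalling, the route from the receptor to the nucleus, had 16 genes. In interzone 4 were higher and 5 lower in the mutant, in growth plate 4 of 13 were higher and 3 lower, and in interdigital tissue 2 of 16 were higher and none lower. Irf8, a transcription factor that holds back osteoclast formation, was 45.2-fold higher in mutant interzone. Prdm1, a repressor of such inhibitors, was 5.95-fold lower there, and Rela, a subunit of NF-kappaB, 4.07-fold lower. Traf6, the adaptor that RANK binds, had a level of 0.12 in mutant and -6.39 in control growth plate, 91.5-fold higher in the mutant. The control level lay near the lowest one well above background on that array (-6.54), so the size of this fold is uncertain. Jun, a part of the AP-1 factor, was 15.3-fold higher in mutant growth plate and 3.40-fold lower in mutant interzone. In interdigital tissue Rela was 2.65-fold and Bcl6, a repressor of osteoclast genes, 2.03-fold higher in the mutant.

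Receptors and costimulatory signalling of the precursor had 11 genes, of which 4 were higher and none lower in mutant interzone. Tyrobp (DAP12), an adaptor of immune receptors on macrophages and osteoclasts, was 32.6-fold higher in mutant interzone and 13.3-fold higher in mutant growth plate. The kinase gene Syk was 5.41-fold and 17.4-fold higher in the same tissues and 2.51-fold lower in mutant interdigital tissue. Csf1r, the receptor of Csf1, was 4.20-fold higher in mutant interzone. In growth plate 3 of 10 were higher and 3 lower, among them Plcg2, a phospholipase downstream of these receptors, at 9.83-fold lower, and in interdigital tissue 1 of 11 was higher and 1 lower. Tyrobp and Csf1r are also on the macrophage list described below.

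Effectors of the resorbing cell had 15 genes on the array, with 2 of 13 higher and 5 lower in mutant interzone, 3 of 13 higher and 5 lower in mutant growth plate, and 0 of 14 higher and 4 lower in mutant interdigital tissue. Car2, the carbonic anhydrase that supplies acid, had a level of -4.62 in mutant and 0.49 in control interzone and of -5.71 in mutant and 1.70 in control growth plate, 34.5-fold and 170-fold lower in the mutant. Snx10, needed for the acid-secreting border, was 6.26-fold and 15.4-fold lower in these tissues. Tcirg1, a proton pump subunit, was on the other side, 2.76-fold and 12.9-fold higher in the mutant, and Plekhm1, a gene of lysosome transport, was 26.6-fold higher in mutant growth plate. In interdigital tissue Mmp9, a matrix protease of osteoclasts, was 15.9-fold lower in the mutant, with a level of -3.31 in the mutant and 0.68 in the control, and Dcstamp, which osteoclasts need to fuse, was 4.85-fold lower. The Dcstamp level of -7.40 in mutant interdigital tissue lay near the lowest one well above background on that array (-7.79). Atp6v0d2, a proton pump subunit of the osteoclast that was singled out after its values were seen, was not well above background on 5 of the 6 arrays and had a level of -4.99 in control interdigital tissue, where it was at least 6.92-fold lower in the mutant. Itgav, the alpha chain of the vitronectin receptor, was 5.61-fold, 6.46-fold and 3.19-fold lower in mutant interzone, growth plate and interdigital tissue at its brightest probe, and its growth plate difference was 2.67 in the other direction when its probes were averaged.

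**Figure D3:**
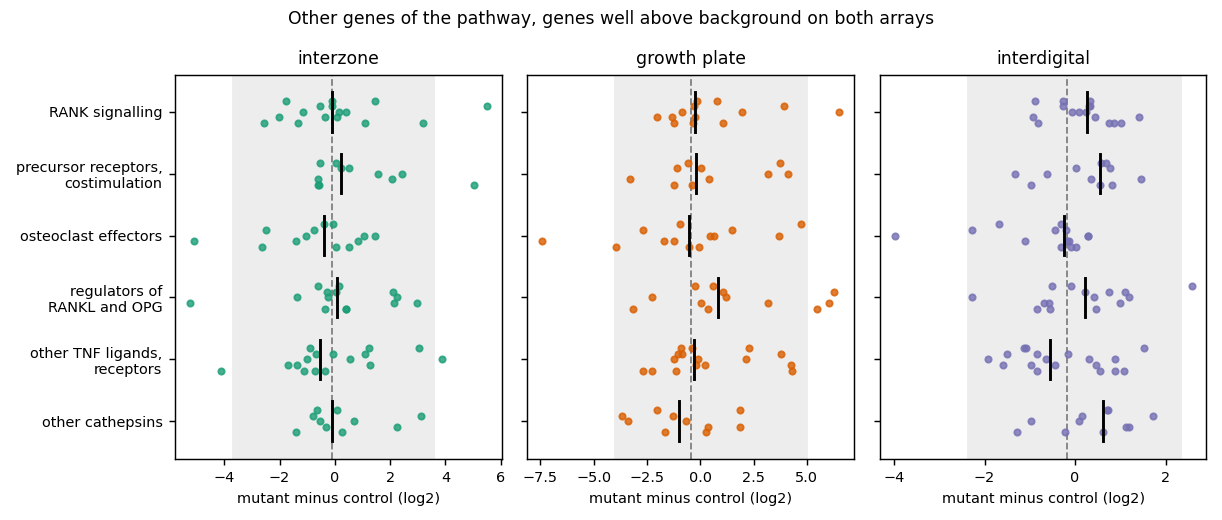
Mutant minus control difference (log2, horizontal axis, with its own range in each panel) of the genes of 6 osteoclast pathway lists in the 3 tissues, each point 1 gene well above background on both arrays. Black bars are list medians, the dashed line the median of all genes and the shaded band the range that holds the central 95% of all genes. Points lie on both sides of the dashed line in every list, with Car2 in growth plate and Mmp9 in interdigital tissue among the effectors furthest to the left.

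Upstream regulators of RANKL and osteoprotegerin had 17 genes, with 4 of 14 higher and 2 lower in mutant interzone, 6 of 12 higher and 2 lower in mutant growth plate, and 4 of 15 higher and 1 lower in mutant interdigital tissue. Sema3a, a secreted semaphorin that restrains osteoclasts, was 37.8-fold, 9.06-fold and 4.87-fold lower in mutant interzone, growth plate and interdigital tissue, and its growth plate difference was 1.62 in the other direction when its probes were averaged. Its level of -6.34 in mutant interzone lay near the lowest one well above background on that array (-6.50). Wnt16, which raises osteoprotegerin, was 66.1-fold higher in mutant growth plate and 5.96-fold higher in mutant interdigital tissue. Il6st, the shared receptor chain of the interleukin-6 family, was 77.6-fold higher in mutant growth plate, where its control level was -5.16. Pth1r, the receptor through which parathyroid hormone raises RANKL, was 4.89-fold lower in mutant growth plate. Vdr, the vitamin D receptor, was 2.16-fold higher in mutant interdigital tissue.

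Other ligands and receptors of the tumour necrosis factor family had 19 genes, with 5 of 16 higher and 5 lower in mutant interzone, 5 of 16 higher and 5 lower in mutant growth plate, and 2 of 18 higher and 5 lower in mutant interdigital tissue. Tnfsf9, the ligand of 4-1BB, was 17.5-fold lower in mutant interzone and 6.37-fold lower in mutant growth plate. Its level of -6.15 in mutant interzone lay near the lowest one well above background on that array (-6.50). Tnf itself was 3.0-fold lower in mutant interdigital tissue, against 84.8-fold for Tnfsf11. Edar, a receptor of the skin's appendages, was 19.7-fold higher in mutant growth plate. Other cathepsins had 11 genes, with 2 of 10 higher and 1 lower in mutant interzone, 2 of 10 higher and 5 lower in mutant growth plate, and 3 of 11 higher and 1 lower in mutant interdigital tissue. Ctss, a cathepsin of antigen-presenting cells, was 10.5-fold lower in mutant growth plate and 3.32-fold higher in mutant interdigital tissue, and Ctsl, a lysosomal cathepsin, was 2.17-fold higher there. The median difference of the measured ones among these other cathepsins was -0.12 in interzone and -0.99 in growth plate, beside -4.27 and -4.90 for Ctsk. Ctso, singled out after its values were seen, lies outside both medians because it is a bound. It was at least 28.3-fold lower in mutant interzone, a larger fold than that of Ctsk, and at least 39.8-fold higher in mutant growth plate.

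Markers of other cell types differed between the paired arrays, and their part in the results was not tested. Counts of markers are read against the shares of all genes. These were 17.8% higher and 22.8% lower in mutant interzone, and 22.1% and 32.6% in mutant growth plate. In mutant interdigital tissue they were 10.1% higher and 16.0% lower. Of 16 macrophage genes, 14 to 16 were well above background on each array. Their median level was -0.92 in mutant and -2.64 in control interzone, -2.03 in mutant and -1.73 in control growth plate, and -0.96 in mutant and -0.04 in control interdigital tissue. In interdigital tissue, where 6 members were lower in the mutant, 5 of 16 macrophage genes were lower and none higher. The other 11 stayed under 2-fold, and the median difference of the list was -0.84. In mutant interzone 9 of 15 macrophage genes were higher and 1 was lower, while Ctsk was 19.3-fold lower.

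Cartilage genes were lower in mutant growth plate in 9 of 9 cases, with medians of 0.28 in the mutant and 5.18 in the control, and in mutant interzone in 6 of 9, with medians of 0.66 in the mutant and 2.65 in the control. Ctsk was 29.9-fold and 19.3-fold lower in these mutant tissues. Interdigital tissue, with the 84.8-fold difference of Tnfsf11, had cartilage medians of 1.16 in the mutant and 0.70 in the control. Epidermal genes had medians of 3.81 in mutant and 0.06 in control interzone, 4.02 in mutant and 3.29 in control growth plate, and 3.93 in mutant and -2.43 in control interdigital tissue, with Cdh1 and Trp63 not well above background in the growth plate and interdigital controls. Osteoblast genes, markers of a lineage that makes RANKL, had medians of -1.96 in mutant and -1.10 in control interdigital tissue, -1.88 in mutant and 0.52 in control growth plate, and -0.43 in mutant and -1.82 in control interzone. In mutant interdigital tissue 1 of 8 measured was higher and 2 lower, and Ibsp was at least 85.9-fold lower. In mutant growth plate 2 of 7 were higher and 3 lower, and Spp1 and Dmp1 were at least 476-fold and 273-fold lower. In mutant interzone 2 of 8 were higher and 1 lower, and Dmp1 was at least 2.50-fold higher. Lymphocyte genes, a further source of RANKL, had medians of -3.48 in mutant and -4.45 in control interdigital tissue.

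Hypertrophic chondrocytes also make RANKL, and of their 5 markers 2 were lower and none higher in mutant interdigital tissue, with medians of -0.73 in the mutant and -0.10 in the control. In mutant growth plate 4 of 4 measured markers were lower, with medians of -1.02 in the mutant and 3.42 in the control, and in interzone the medians were -0.99 in the mutant and -0.60 in the control. Endothelial genes, 4 of 7 of which were lower and none higher in mutant interdigital tissue, had medians of -0.33 in mutant and 0.19 in control interdigital tissue, -0.32 in mutant and -2.76 in control interzone, and -0.31 in mutant and -5.58 in control growth plate. Muscle genes had medians of 1.69 in mutant and -1.15 in control interzone, -1.04 in mutant and 1.84 in control growth plate, and -0.23 in mutant and 0.38 in control interdigital tissue.

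**Figure D4:**
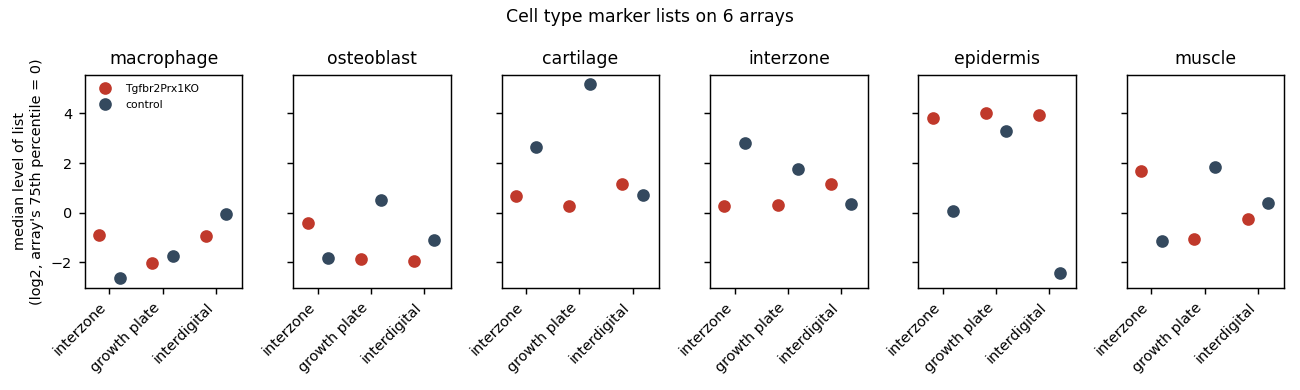
Median level (log2 signal relative to the array's 75th percentile, vertical axis) of 6 marker lists in the 3 tissues, mutant in red left of control in dark blue. Epidermal genes are higher in the mutant than in the control in each tissue, cartilage genes lie at 0.28 in mutant and 5.18 in control growth plate, and macrophage genes at -0.96 in mutant and -0.04 in control interdigital tissue.

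The pattern over the 6 arrays was compared with that of about 5830 other genes that were well above background on every array and varied by an SD of at least 1. With 6 points that share array, amplification and tissue, the correlations describe likeness only. Ctsk was most like Eln, the elastin gene (r = 0.97), whose level was -0.51 in mutant and 4.0 in control interzone, -0.87 in mutant and 3.25 in control growth plate, and 3.17 in mutant and 4.28 in control interdigital tissue. Tnfrsf11b was most like Spire1 (r = 0.99), and 85 genes passed 0.95 with it. Acp5 was most like Brinp1 (r = 0.99), Csf1 like Ccdc83 (r = 0.98), Tnfrsf11a like Cmtm4 (r = 0.98), Nfatc1 like Csrnp3 (r = 0.99) and Oscar like Uckl1 (r = 0.99). Between 1 and 20 genes passed 0.95 with each of the members other than Tnfrsf11b. Tnfsf11 was left out, as it was not well above background on all 6 arrays.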

How the data were processed

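The 8 genes and the gene lists were chosen with earlier results of these data known. Groups came from the titles, since the descriptions of 5 samples name irradiated human blood. Per the labels' protocols, captured RNA was amplified by PCR (SuperAmp) and 250 ng were labelled with Cy3. The authors deposited scanner files of spot intensity, background-subtracted by Agilent Feature Extraction 9.5.1.1, per the file headers. Their deposited value table holds a linear ratio, each signal over its array's median, as found by setting it against the scanner values. The sources used here do not say why.

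Control spots and outlier flags were left out, spots of a probe were averaged, and log2 signals were set against each array's 75th percentile. No spot was saturated. Probes were named through RefSeq's GRCm38.p6 table by accession (23050), symbol (6564) or older symbol (3064), and 8407 stayed unnamed. A gene with several probes was represented by the one with the highest mean. A bound, written "at least", sets the bright spot against the dimmest detected level of the other array, or against the dim spot's own level if that is higher. No test was run: differences are given tissue by tissue, with 1 array each, and the number of arrays limits the precision. The calling step was tested on simulated data. From each pathway list, up to 3 genes per direction and tissue with the largest counted difference could be named, and for each member the 3 genes most like it, of which the first is given. Not all genes that met the rule are named. Analyses used Python 3.11.15, pandas 2.3.3, R 4.3.3 and limma 3.58.1 (quantile and normexp alternatives). The 7 alternatives were 3 other scalings (detected probes, deposited ratios, quantile), normexp with an offset of 50, a 4-fold threshold, no filter on dim probes, and the mean over a gene's probes.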

Additional observations from a re-analysis of the deposited data

Results flagged for a closer look

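In 3 cases a gene lay on opposite sides of its control in a pair of tissues with at least 1 of the differences past 2-fold and both beyond 2 times the scanner software's error. The difference between tissues was not tested. Csf1 was higher in mutant interzone (0.69) and lower in mutant growth plate (-2.86), a gap of 3.56 on the log2 scale. Nfatc1 at its brightest probe was higher in mutant interzone (0.86) and lower in mutant interdigital tissue (-1.77), a gap of 2.62, while its second probe was lower in both. Oscar was higher in mutant growth plate (0.73) and lower in mutant interdigital tissue (-1.24), a gap of 1.97, and its growth plate direction depended on the scaling.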

How the results depend on the processing

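Each mutant and control difference of the members kept its direction where it had been counted (12 of 12) under the other scalings and normexp, as did the 19 counted differences between tissues and the 13 counted ones of second probes. Averaging probes turned none of these counted differences at brightest probes, and can turn a difference only for genes with several probes. It did turn the uncounted growth plate differences of Tnfrsf11a, from -0.49 to 1.34, and of Nfatc1, from 0.11 to -1.69. The 4-fold threshold and the lack of a filter leave a direction as it is by construction. Of the 12, 7 also kept 2-fold in the 6 alternatives that use that threshold. Tnfrsf11b in interzone and interdigital tissue and Tnfrsf11a in interdigital tissue lost it with the deposited ratios, quantile normalization and normexp, Ctsk in interdigital tissue with the deposited ratios, and Oscar in interdigital tissue with normexp. Tnfsf11 in interdigital tissue ranged from -7.24 to -3.63, the weakest with normexp. Among the named genes of the lists and Tgfbr2, averaging a gene's probes turned 8 of 83 counted differences: Lifr (-0.31) and Tnfrsf10b (-0.54) in interzone, Fosl2 (1.03), Irf8 (-0.85), Itgav (2.67) and Sema3a (1.62) in growth plate, and Fas (0.029) and Osmr (-0.92) in interdigital tissue. The cause was not tested, beyond the use of further probes.

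Scaling on probes detected on all 6 arrays gave 2 members higher and 14 pathway genes lower in mutant growth plate, and 2 members past 2-fold between interzone and growth plate controls. The deposited ratios gave 1 member higher and 1 lower in mutant interzone, 6 members, 42 pathway genes and 62.0% of probes lower and 15.2% of probes higher in mutant growth plate, and 3 members lower in mutant interdigital tissue. They gave 6 members between interzone and growth plate controls and 2 between growth plate and interdigital controls. Quantile normalization gave 1 member lower in mutant interzone, 5 in mutant growth plate, 20 pathway genes higher in mutant interdigital tissue, 4 members between mutant interzone and interdigital tissue and 3 between interzone and growth plate controls. Normexp gave 1 member lower in mutant interzone, and 3 members, 4 pathway genes and 9.58% of probes lower in mutant interdigital tissue, with 2 members between interzone and growth plate controls. Averaging probes gave 2 members higher and 5 lower in mutant growth plate, and 4 between interzone and growth plate controls.

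At 4-fold, 13 pathway genes and 9.73% of probes were higher and 1 member, 7 pathway genes and 11.2% of probes lower in mutant interzone. In mutant growth plate 16.0% of probes were higher, and 12 pathway genes and 12.5% of probes lower. In mutant interdigital tissue 1 pathway gene and 3.94% of probes were higher, and 1 member, 3 pathway genes and 5.77% of probes lower. Between mutant tissues 4-fold was passed by 19.2% of probes for interzone and growth plate, 16.8% for interzone and interdigital tissue, and 13.5% and 2 members for growth plate and interdigital tissue. Between controls it was passed by 26.8% of probes for interzone and growth plate, 13.6% and 2 members for interzone and interdigital tissue, and 27.2% and 2 members for growth plate and interdigital tissue.

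Of genes past 2-fold, the share higher in the mutant was 40.4% in growth plate, 54.4% on detected probes, 16.8% with the deposited ratios and 50.7% with probes averaged. It was 43.9% in interzone and 54.3% with the deposited ratios, and 38.7% in interdigital tissue, 51.3% with the deposited ratios, 49.2% with quantile normalization and 51.5% with normexp. A fit of genotype with tissue as a block, which asks for a difference shared by the 3 tissues, was not run. Dim spots carry the larger software error, up to 0.71 on the log2 scale among the members.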
